A study of Homo sapiens with 6 samples.

Results

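The SPARC and follistatin-like family was taken as 8 genes of secreted proteins that share a follistatin domain, namely SPARC, SPARCL1, the testicans SPOCK1, SPOCK2 and SPOCK3, and the follistatin group FST, FSTL1 and FSTL3. All 8 were measured, by 12 of the 22215 probe sets other than controls, and they made up 8 of the 11963 genes tested. SPARC, SPOCK2, SPOCK3 and FST had 2 probe sets each. The genes were chosen by family, and the family was selected on the log2 values of SPARC in these 6 arrays, so the members' own differences in this comparison are given as a description, without a p-value.

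The data came from 6 Affymetrix arrays of human breast carcinoma lines labelled as invasive lobular and positive for estrogen and progesterone receptors. The 3 arrays of SUM44, the line labelled tamoxifen sensitive, came from cultures exposed for 24 h to 4-hydroxytamoxifen (4HT) at 500 nM, the active form of the antiestrogen tamoxifen. The 3 arrays of LCCTam, the line labelled resistant, came from cultures held for 14 days without 4HT. Line and drug exposure therefore differ together and cannot be told apart, each phenotype is represented by a single line, and both lines were grown in the same medium, Ham's F12 with the SFIH supplement named in the labels. Levels are log2 values, differences are LCCTam minus SUM44, errors of group means are SD over 3 arrays, and errors of differences are standard errors (SE) of the moderated fit of limma.

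SPARC (osteonectin) is a collagen-binding glycoprotein of the extracellular matrix that is abundant in bone, in stroma and at sites of remodelling, and it modulates cell adhesion and collagen assembly without being a structural fibre itself. SPARCL1 (hevin) is its closest relative, and the testicans are proteoglycans that combine the same calcium-binding module with a thyroglobulin-type domain. FST and FSTL3 bind activins and related ligands of the TGF-beta superfamily and keep them from their receptors, whereas FSTL1, in spite of its name, is grouped with the SPARC-like proteins by sequence. In breast tumours SPARC is made mainly by stromal cells, with lower levels in many luminal carcinoma cells.

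Promoter sequences are shown for SPARC, the member with the large difference, and for 3 members with small ones, its closest relative SPARCL1, FSTL1 and FST. Each is the 250 bases before the transcription start in RefSeq (GRCh38.p14), 5′ to 3′ on the strand of the gene, at chr5:151686916-151687165 (minus strand) for SPARC, chr4:87529377-87529626 (minus) for SPARCL1, chr3:120450993-120451242 (minus) for FSTL1 and chr5:53480379-53480628 (plus) for FST. Capitals mark GGAGG on either strand, the letters of the purine-rich GGA boxes described for the SPARC promoter.
SPARC: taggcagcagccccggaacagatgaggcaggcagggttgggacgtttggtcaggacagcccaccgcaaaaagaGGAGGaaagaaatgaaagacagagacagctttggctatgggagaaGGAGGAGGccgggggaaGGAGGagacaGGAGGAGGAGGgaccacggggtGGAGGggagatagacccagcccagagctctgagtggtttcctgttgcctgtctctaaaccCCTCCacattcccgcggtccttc
SPARCL1: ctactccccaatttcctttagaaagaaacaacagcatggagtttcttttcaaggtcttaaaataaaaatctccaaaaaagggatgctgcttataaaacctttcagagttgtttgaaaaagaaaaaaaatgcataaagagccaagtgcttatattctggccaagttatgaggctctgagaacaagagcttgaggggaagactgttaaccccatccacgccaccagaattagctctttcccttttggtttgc
FSTL1: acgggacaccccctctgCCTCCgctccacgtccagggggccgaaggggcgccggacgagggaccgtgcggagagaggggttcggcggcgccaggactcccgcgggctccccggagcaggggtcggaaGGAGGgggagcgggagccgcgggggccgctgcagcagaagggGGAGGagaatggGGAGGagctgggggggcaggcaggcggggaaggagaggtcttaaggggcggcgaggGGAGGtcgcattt
FST: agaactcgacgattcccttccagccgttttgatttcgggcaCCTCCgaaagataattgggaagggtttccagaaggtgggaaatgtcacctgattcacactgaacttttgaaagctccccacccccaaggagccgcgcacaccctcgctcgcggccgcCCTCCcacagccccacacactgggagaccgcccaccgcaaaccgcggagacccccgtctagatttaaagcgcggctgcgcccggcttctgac

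The SPARC window held GGAGG at 9 positions, 8 of them on the gene's strand, and 1.07% of the 27303 promoters compared held as many or more. At least 1 GGAGG was present in 71.6% of those promoters. FSTL1 held 5, FST held 2 and SPARCL1 held 0, and among the members not printed SPOCK3 held 7, SPOCK2 held 3 and FSTL3 held 0. The letters TATAAA, found in 11.1% of promoters, and CCAAT, found in 33%, were not in the SPARC window on either strand, nor was GGGCGG, found in 42.3%.  The amino acid response letters TGATGNAAT (0.916%) and the E-box CACGTG (6.49%) were in none of the 7 windows, and the AP-1 letters TGANTCA (6.6%) were in FST alone. The SPARC window was 59.2% G and C, beside a median of 58% over all promoters, and held 7 CpG dinucleotides. FST, of like base composition at 60%, held 20.

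SPARC was the only member with a large difference. On its brighter probe set the SUM44 replicates 1, 2 and 3 read 6.53, 6.22 and 6.76 and the LCCTam replicates 10.36, 10.40 and 10.44. The lowest LCCTam array lay 3.60 above the highest SUM44 array. The group means were 6.51 ± 0.27 (SD, n = 3) and 10.40 ± 0.04, a difference of 3.89 ± 0.15 or 14.9-fold. The 3 LCCTam cultures spanned 0.08 on the log2 scale and the 3 SUM44 cultures 0.54. This was the second highest signed difference among the 11963 genes, after CPB1 (5.50).

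The dimmer SPARC probe set gave the same direction and a smaller difference. It read 4.78, 4.82 and 5.22 in SUM44 replicates 1, 2 and 3 and 7.11, 7.19 and 7.37 in LCCTam. All LCCTam arrays again lay above all SUM44 arrays, by at least 1.89, and the mean difference was 2.28, or 4.86-fold. On the 2 probe sets SUM44 replicate 3 was the highest of its group. The brighter probe set exceeded the dimmer by 1.40 to 1.75 in the SUM44 arrays and by 3.06 to 3.26 in the LCCTam arrays, so the size of the SPARC difference depends on the probe set. The SUM44 level of the dimmer probe set (4.94 ± 0.24) was under 5.93, the lower quartile of gene means. Below that level a signal is called dim here, since without detection calls it may be background, and a fold against it is not exact.

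**Figure D1:**
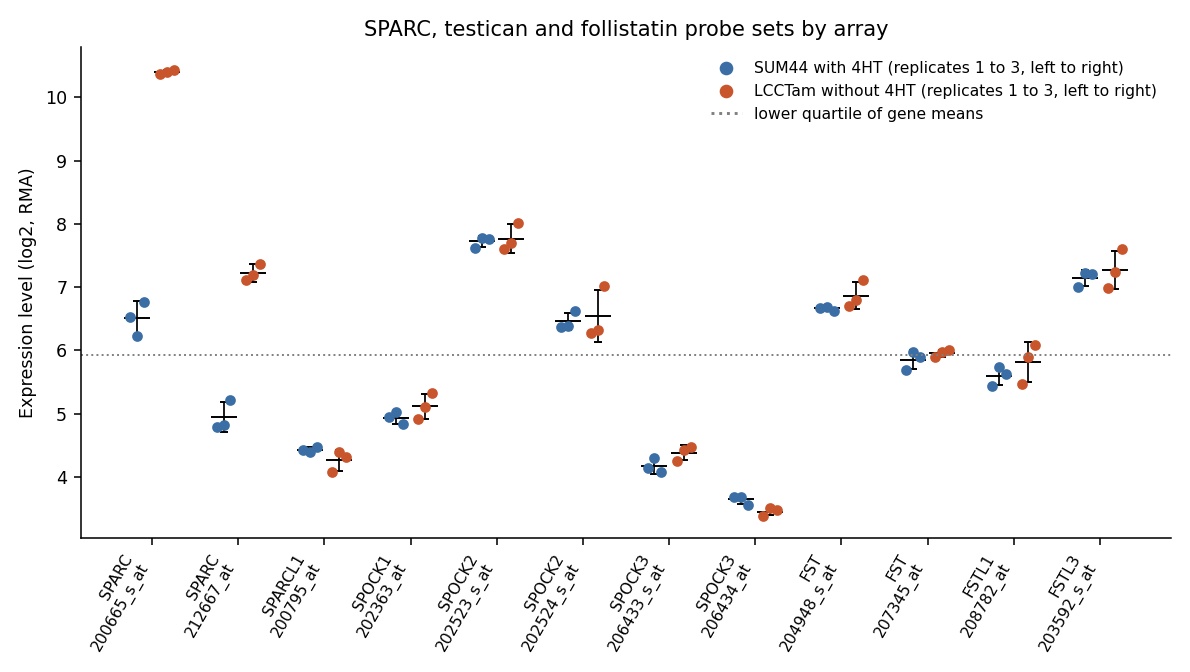
Expression level (log2) of the 12 probe sets of the 8 genes on each of the 6 arrays, with blue points for SUM44 with 4HT, orange points for LCCTam without 4HT, black bars for the mean ± SD (n = 3) and a dotted line at 5.93, the lower quartile of gene means. The 3 orange points of the brighter SPARC probe set (leftmost) sit between 10.36 and 10.44, far above the blue points at 6.22 to 6.76, while the groups of most other probe sets overlap.

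SPARCL1, an antiadhesive matrix protein, was dim in both lines. It read 4.42, 4.40 and 4.47 in SUM44 replicates 1, 2 and 3 and 4.08, 4.39 and 4.31 in LCCTam. The LCCTam arrays were all below the SUM44 arrays, but by only 0.01 at the closest pair, and the difference was -0.17 ± 0.11. Its sign was opposite to that of SPARC. The difference was smallest, at -0.08, with LCCTam replicate 1 left out.

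The testicans showed small differences. SPOCK1 (testican 1) read 4.95, 5.02 and 4.83 in SUM44 and 4.92, 5.11 and 5.32 in LCCTam, with overlapping groups and a difference of 0.18 ± 0.13. SPOCK2 (testican 2), which was above the dim range in both lines, read 7.62, 7.78 and 7.76 in SUM44 and 7.60, 7.69 and 8.02 in LCCTam. Its difference was 0.05 ± 0.14, and LCCTam had both the lowest and the highest of the 6 arrays. The second SPOCK2 probe set read 6.37, 6.39 and 6.62 against 6.27, 6.33 and 7.02, a difference of 0.08, again with LCCTam replicate 3 apart from the others.

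SPOCK3 (testican 3) was near the floor of the arrays, and its probe sets disagreed in sign. The brighter read 4.14, 4.30 and 4.07 in SUM44 and 4.25, 4.43 and 4.47 in LCCTam, with groups that overlapped by 0.05 and a difference of 0.21 ± 0.11. The dimmer read 3.68, 3.68 and 3.56 against 3.38, 3.50 and 3.47, without overlap, and its difference was -0.19. No direction can be given for SPOCK3 from these signals.

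Among the follistatins, FST, the antagonist of activin, read 6.67, 6.69 and 6.63 in SUM44 and 6.69, 6.80 and 7.11 in LCCTam on its brighter probe set. The groups were parted by 0.01 and differed by 0.20 ± 0.13. The other FST probe set read 5.68, 5.97 and 5.90 against 5.89, 5.97 and 6.003, with overlap and a difference of 0.10. FSTL3, a further activin antagonist, read 7.003, 7.22 and 7.20 in SUM44 and 6.99, 7.24 and 7.59 in LCCTam. Its difference was 0.13 ± 0.17, and the SUM44 arrays lay inside the LCCTam range.

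FSTL1, a secreted glycoprotein made largely by mesenchymal cells, read 5.44, 5.73 and 5.63 in SUM44 and 5.47, 5.89 and 6.08 in LCCTam. The groups overlapped and differed by 0.22 ± 0.17, and both means were dim. Its difference was within its SE of those of SPOCK3 (0.21) and FST (0.20), so these members have no order.

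Counted as the other genes of the arrays were, 1 of the 8 members, SPARC, was called higher at adjusted p under 0.05 by limma, none was called lower and 7 were not called. Over all genes 15.8% were called, 9.18% higher and 6.6% lower. The groups did not overlap at 3 members (SPARC, SPARCL1 and FST), where 35.4% of all genes showed no overlap. By probe set, 2 of the 12 were called, both of SPARC, where 13.5% of all probe sets were. The members' median difference was 0.19, beside 0.08 over all genes. Because SPARC's difference chose the set, nothing is read from these counts.

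**Figure D2:**
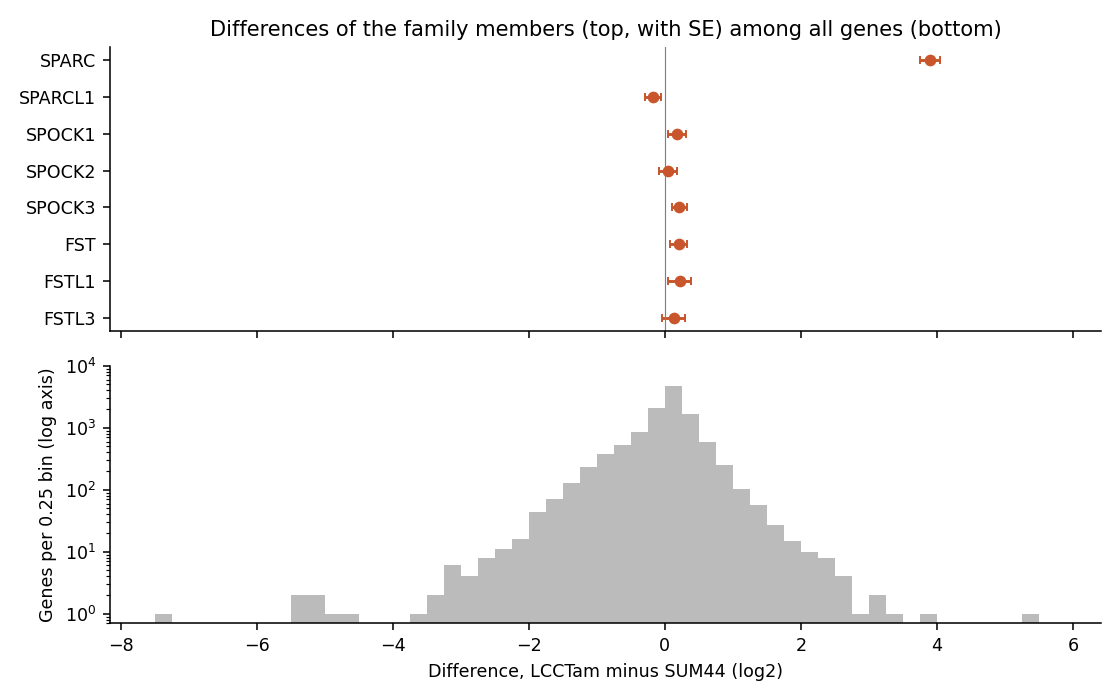
The top panel gives the difference of each of the 8 genes (LCCTam minus SUM44, log2, bars are SE) and the bottom panel the number of genes in each 0.25-wide bin of difference on a log axis. SPARC stands at 3.89, near the right end of the distribution, and the other 7 members lie between -0.17 and 0.22.

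The LCCTam arrays varied more among themselves than the SUM44 arrays, and the members shared an order within them. With 1 probe set per gene, LCCTam replicate 1 was the lowest of the 3 LCCTam arrays at 8 of 8 members and at 58.4% of all genes, and replicate 3 was the highest at 7 of 8 members and at 52.3% of all genes. The SD of the LCCTam arrays exceeded that of the SUM44 arrays at 6 of 8 members (75%) and at 75.4% of all genes. For the brighter SPARC probe set the relation was the other way, with SDs of 0.04 in LCCTam and 0.27 in SUM44. Over all genes, correlations ran from 0.994 to 0.995 among the SUM44 arrays and from 0.958 to 0.987 among the LCCTam arrays. The small positive differences of SPOCK1, SPOCK2, FST, FSTL1 and FSTL3 drew on LCCTam replicate 3. Without that array SPOCK1, FST and FSTL1 each differed by 0.08, FSTL3 by -0.03 and SPOCK2 by -0.08. With LCCTam replicate 1 left out instead, FSTL1 differed by 0.39 and was called beside SPARC, when 35.5% of all genes were called.

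With each array left out in turn, the SPARC difference ran from 3.75 to 4.02, given as a description since SPARC's values chose the set. LCCTam replicate 1, which was the nearest of its group to the SUM44 arrays over all genes, read 10.36 on the brighter SPARC probe set. That was within 0.08 of the other LCCTam arrays. The 3 genes whose values over the 6 arrays were most like those of SPARC, by the root mean square difference after each gene was centred on its mean, were HSD17B2 (0.33), an enzyme that oxidises estradiol, DDIT4 (0.41), an inhibitor of mTOR signalling, and ASNS (0.52), asparagine synthetase. Their Pearson correlations with SPARC were 0.994, 0.989 and 0.987 over 6 arrays that fall into 2 clusters, so they describe the step between the groups. The LCCTam values of HSD17B2 spanned 9.69 to 10.18, those of DDIT4 10.86 to 11.52 and those of ASNS 11.45 to 11.88. All were wider than the LCCTam span of SPARC, which was 0.08 on the brighter probe set and 0.27 on the dimmer. In SUM44 the order was the other way, with SPARC the widest at 6.22 to 6.76. There HSD17B2 spanned 6.55 to 6.58, DDIT4 7.79 to 7.93 and ASNS 8.49 to 8.82.

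The genes around SPARC on chromosome 5 did not share its difference. Of the 5 measured genes nearest on each side, 1 rose and 9 were not called, and their median difference was 0.11. The one that rose was its immediate measured neighbour ATOX1, a copper chaperone, by 0.69 ± 0.12 (adjusted p = 0.0108 by limma, 0.00135 to 0.0596 under the alternatives). Dropping SUM44 replicate 1 (limma adjusted p = 0.057), SUM44 replicate 3 (0.0566) or LCCTam replicate 2 (0.0596) ended that call. Fewer of all genes were called in those settings (6.73%, 6.28% and 6.33%). On the other side of SPARC, FAT2 differed by 0.05 and SLC36A1 by 0.32, neither called. SPOCK1 and FST lie on the same chromosome, and none of the 10 neighbours of either was called. Over all 8 members, 6 of 80 neighbours rose, 6 fell and 68 were not called, which is 15% called beside 15.8% of all genes. That count was 21 without LCCTam replicate 1, when 35.5% of all genes were called, and 7 without LCCTam replicate 2, when 6.33% were.

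**Figure D3:**
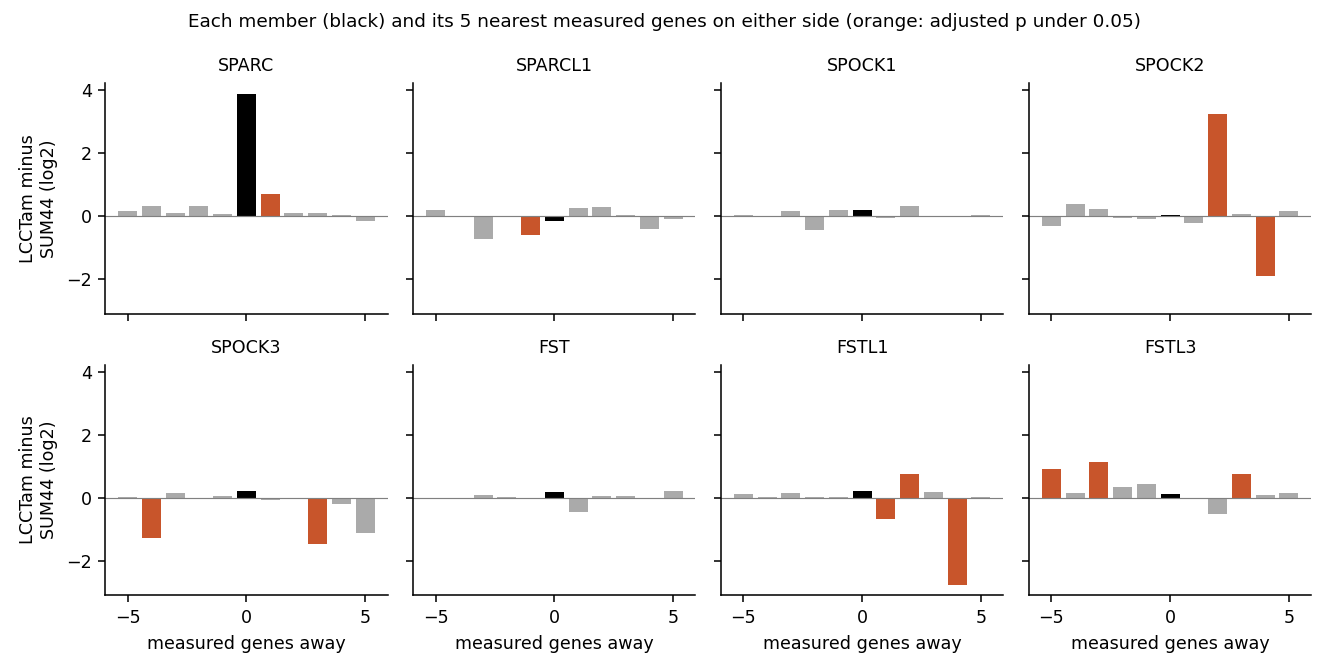
Differences (LCCTam minus SUM44, log2) of each member, as the black bar at 0, and of its 5 nearest measured genes on either side, in orange where adjusted p was under 0.05 and grey otherwise. SPARC at 3.89 stands alone beside neighbours between -0.14 and 0.69, while the small bars of SPOCK2 (0.05), FSTL1 (0.22) and SPOCK3 (0.21) have neighbours with differences as large as 3.25, -2.76 and -1.46.

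Genes that work with the family were followed by lists set by function. The same p-values over all genes were used for them, and beside each p stands its span over the alternatives, including each array dropped in turn. Fewer of all genes were called with SUM44 replicate 1, 2 or 3 dropped (6.73%, 7.22% and 6.28%) or LCCTam replicate 2 (6.33%), beside 15.8% with 6 arrays. Calls that end in those settings are to be read beside that fall. Among 7 measured relatives with a follistatin or similar cysteine-rich domain, CRIM1, a membrane protein that binds BMPs, fell by 0.45 ± 0.13 (limma adjusted p = 0.0483, span 0.0036 to 0.185) and 6 were not called, among them AGRN (0.12), IGFBP7 (0.13) and HTRA1 (0.20). CRIM1 stayed called only when LCCTam replicate 1 was the array dropped, and its dimmer probe set gave -0.36, not called.

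For the activin and BMP system that FST and FSTL3 restrain, 1 of 32 measured genes rose, 1 fell and 30 were not called (6.25% called, median 0.04). The activin subunit INHBA read 5.64, 5.70 and 5.66 in SUM44 and 5.65, 5.86 and 6.31 in LCCTam, and INHBB read 9.73, 9.67 and 9.90 against 9.58, 9.45 and 9.77, neither called. The activin receptor ACVR1B rose by 0.56 ± 0.10 (limma adjusted p = 0.00994, span 0.00514 to 0.137) on its brightest probe set, while 5 dimmer ones gave 0.13 to 0.26 and were not called. ACVR1, a receptor of BMPs and activins, fell by 0.71 ± 0.19 (limma adjusted p = 0.044, span 0.00838 to 0.154). Dropping SUM44 replicate 1 or 3 left 0 calls in the list, and dropping SUM44 replicate 2 or LCCTam replicate 2 left ACVR1B alone. In those settings 6.28% to 7.22% of all genes were called. Dropping LCCTam replicate 1 gave 7 of 32, when 35.5% of all genes were called.

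Among collagens and the enzymes that process them, the partners of SPARC in the matrix, 2 of 26 rose, 2 fell and 22 were not called (15.4% called, median 0.10). LOXL1, which oxidises lysines for the cross-linking of elastin and collagen, read 6.07, 5.98 and 5.93 in SUM44 and 7.85, 8.02 and 7.98 in LCCTam. It rose by 1.96 ± 0.10 with no overlap (limma adjusted p = 6.34e-05, span 1.17e-05 to 0.00143). P4HB, the beta subunit of prolyl 4-hydroxylase, rose by 0.51 (span 0.0168 to 0.129), while the alpha subunits P4HA1 and P4HA2 fell by 1.91 (4.6e-05 to 0.0588) and 0.47 (0.0198 to 0.174). LOXL1 alone was called with SUM44 replicate 1, SUM44 replicate 3 or LCCTam replicate 2 dropped, and LOXL1 and P4HA1 with SUM44 replicate 2 dropped. No collagen gene was called, and COL1A1, a chain of the type I collagen that SPARC binds, was at 7.83 in SUM44 and 7.99 in LCCTam.

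Of 25 matricellular and pericellular proteins, the wider class of SPARC, 2 rose, 2 fell and 21 were not called (16% called, median 0.08). FN1 (fibronectin) rose by 0.96 ± 0.17 (limma adjusted p = 0.0108, span 0.00309 to 0.0589) and THBS1 (thrombospondin 1) by 0.42 (0.0435, 0.0161 to 0.248), while the laminin chain LAMC1 fell by 0.60 (0.00688, 0.00218 to 0.0451) and FBLN1 (fibulin 1) by 0.68 (0.0201, 0.0078 to 0.137). Of the dimmer probe sets, 3 of 5 for FN1 were called and 1 read -0.13, 0 of 4 were called for THBS1 with 1 at -0.08, and 1 of 4 was called for FBLN1 with another at 0.17. LAMC1 was the 1 call left with SUM44 replicate 2 or 3 dropped, and it and FN1 were the 2 left with LCCTam replicate 2 dropped.

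Among 26 proteases and inhibitors that cut SPARC proteins or that testicans act on, 1 rose, 2 fell and 23 were not called (11.5% called, median 0.03). TIMP1, an inhibitor of matrix metalloproteinases, fell by 1.15 ± 0.14 (limma adjusted p = 0.002, span 0.00059 to 0.0136) and CTSL (cathepsin L) by 0.90 ± 0.11 (0.00236, 0.000326 to 0.0185). MMP17, a membrane-anchored metalloproteinase, rose by 0.57 ± 0.14 (0.0306, 0.00635 to 0.124), and LCCTam replicate 1 was the one array that could be dropped without ending its call. Of 30 receptors and growth factors bound or modulated by SPARC or FSTL1, 2 rose, 1 fell and 27 were not called (10% called, median 0.05). TGFBR2, the type II TGF-beta receptor, fell by 1.57 ± 0.10 (limma adjusted p = 0.000148, span 4e-05 to 0.00398), with -0.34, not called, on its dimmer probe set. The integrin chain ITGA5 rose by 0.61 ± 0.12 (0.0136, 0.00288 to 0.0722) and VEGFA, the angiogenic factor, by 0.59 ± 0.15 (0.0414, 0.0302 to 0.112), the latter with 0.33 to 0.37, not called, on 3 dimmer probe sets. TGFBR2 was the 1 call left with SUM44 replicate 1, SUM44 replicate 3 or LCCTam replicate 2 dropped, and 8 of 30 were called with LCCTam replicate 1 dropped, again beside 35.5% of all genes.

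SPARC also marks stromal cells, so markers of fibroblasts, endothelium and leukocytes were read beside it. Of 19 such genes, none rose, 1 (FBLN1) fell and 18 were not called by limma (5.26% called), with a median of 0.08, and 1 had an unadjusted p under 0.05. Their mean level ran from 6.06 to 6.15 over the SUM44 arrays and from 5.97 to 6.24 over the LCCTam arrays. At 8 of the 19 the signal was dim in both lines, including COL3A1 (5.35 and 5.48), LUM (3.36 and 3.33) and CDH5 (4.14 and 4.28). The rest were not, and the brighter ones included COL1A1 (7.83 and 7.99), TEK (7.68 and 7.75) and PDGFRA (7.49 and 7.61). DCN (decorin) was at 6.37 and 6.51 and PTPRC, the leukocyte antigen CD45, at 6.13 and 6.07. The FBLN1 call ended with SUM44 replicate 2 (adjusted p = 0.0706), SUM44 replicate 3 (0.0888) or LCCTam replicate 2 (0.0512) dropped. Of 14 genes of mesenchymal transition, 2 rose (FN1 and the transcription factor TWIST1, by 0.85), 2 fell (the hyaluronan receptor CD44 by 0.72 and the transcription factor SNAI1 by 0.44) and 10 were not called (28.6% called, beside 15.8% of all genes, median 0.02). The highest limma adjusted p over the alternatives was 0.064 for TWIST1, 0.0787 for CD44 and 0.113 for SNAI1. With SUM44 replicates 1, 2 and 3 and LCCTam replicate 2 dropped in turn the list had 2, 0, 1 and 2 calls. In those settings 6.73%, 7.22%, 6.28% and 6.33% of all genes were called.

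Several markers of the labelled epithelial identity were bright in both lines. KRT18 was at 13.76 in SUM44 and 13.34 in LCCTam, KRT8 at 12.09 and 11.00, EPCAM at 11.18 and 10.75, and GATA3 at 11.73 and 12.84. CDH1 (E-cadherin, often lost in lobular carcinoma) was at 6.52 and 6.73. The basal keratins KRT5 (5.76 and 5.83) and KRT14 (5.41 and 5.51) were dim in both lines, the 2 members of the list that were. PGR, the progesterone receptor of the label and not in the list, was dim at 4.22 and 4.01. Of 14 epithelial markers, 1 (GATA3) rose, 5 (MUC1, KRT8, ESR1, KRT19 and KRT18) fell and 8 were not called (42.9% called, beside 15.8% of all genes, median -0.31). With SUM44 replicate 1 or 3 dropped the list had 3 calls of 14, when 6.73% and 6.28% of all genes were called. The highest limma adjusted p over the alternatives was 0.0583 for ESR1, 0.0818 for KRT19 and 0.135 for KRT18. It was under 0.05 for MUC1, KRT8 and GATA3. Dimmer ESR1 probe sets ran from -0.43 to -0.75 where called, while others gave 0.03, 0.05, 0.04 and -0.07, not called. The mean level of the list ran from 9.75 to 9.81 in SUM44 and from 9.36 to 9.43 in LCCTam, opposite in direction to SPARC, and its part in the SPARC difference was not tested.

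**Figure D4:**
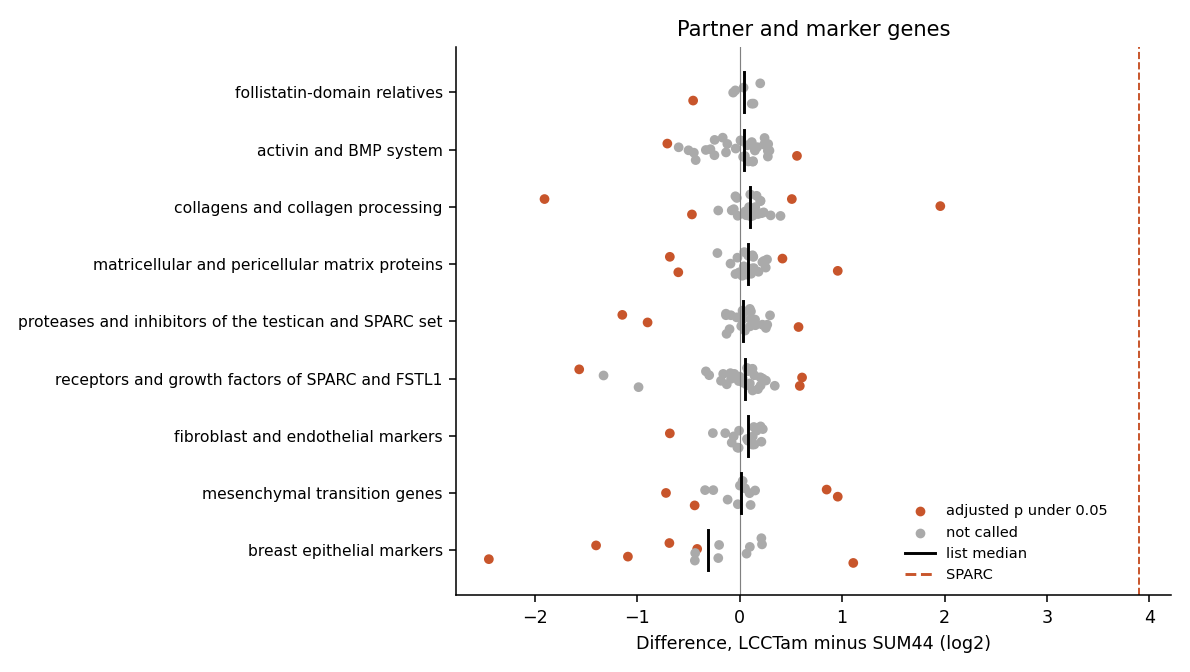
Differences (LCCTam minus SUM44, log2) of the measured genes of 9 lists of partners and markers, 1 point per gene, orange where adjusted p was under 0.05 and grey otherwise, with a black bar at each list's median and a dashed line at the SPARC difference of 3.89. Every point lies to the left of the SPARC line, and LOXL1 at 1.96 is the one nearest to it.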

How the data were processed

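RNA of 6 cultures was measured on 6 Affymetrix arrays. The deposited values are log2 levels that the authors made with RMA, per the submitters' processing notes and the series design. Arrays are quantile-normalised by RMA, which hides a change in total RNA per cell. Values ran from 3.16 to 14.6, with array medians of 6.70 to 6.77.

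Groups and replicate numbers came from the titles, which call the arrays biological replicates and say no more of the cultures, so p-values reflect only the spread between cultures. Of 22283 probe sets, 68 controls were left out. The platform annotation gave 1 gene to 19065, and symbols were updated by gene ID for 19053 through the RefSeq table of GRCh38.p14. The brightest probe set by mean stood for each gene, giving 11963 genes. The fit used limma 3.58.1 (lmFit, eBayes; R 4.3.3; two-sided, 4 residual and 3.51 prior degrees of freedom), with Benjamini-Hochberg adjustment over all genes, called under 0.05. An unadjusted p under 0.05 was reached by 3753 genes. The script was tested on simulated data.

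The members and lists were chosen with earlier results of these data known. Named are all members, the called members of each list (the 3 smallest adjusted p per direction above 5), the called neighbours of SPARC and the 3 genes most like it. Other genes (neighbours of other members, FAT2, SLC36A1, uncalled list genes, PGR, and KRT19 and KRT18 to complete a count) were chosen after their values were seen. Neighbours follow gene starts in the RefSeq table. Promoters came from the RefSeq promoter table, using the first listed start of each gene, for 7 of 8 members; there was no entry for SPOCK1. Alternatives were the mean of probe sets, every probe set, trend with robust fitting, cyclic loess, median centring, 2 filters on dim genes, an adjusted p under 0.01, the replicate block and each array left out.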

Additional observations from a re-analysis of the deposited data

How the results depend on the processing

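Of 99 values of the members' differences under alternatives, 95 stayed within 1 SD of the main value and 4 moved further. The 4 were SPARC with the mean of its probe sets (3.09) and on its dimmer probe set (2.28), and SPOCK3 likewise (0.01 and -0.19). A reversal could be counted for SPARC alone, the called member, so the lack of any says nothing of the others. The sign did change for SPOCK3 on its dimmer probe set, and for SPOCK2 and FSTL3 at values among the 95. Trend with robust fitting, the replicate block and the dim filters leave a difference unchanged by construction. So does the mean of probe sets for a gene with 1 probe set, and median centring moved every difference by the same -0.01. The tally of 95 includes these values, so it is not a measure of robustness. SPARC was the only member called under each of 7 other settings of the whole data. Because SPARC's difference chose the set, nothing is read from these calls either. SPOCK2 was negative after cyclic loess (-0.08), which lowered the median difference of all genes by 0.08. Of 11963 genes, 1888 were called, 3002 of the probe sets when each was its own unit, and 723 genes at adjusted p under 0.01. At that threshold the counts were 0 for follistatin-domain relatives, fibroblast and endothelial markers and mesenchymal genes, 1 for the activin and BMP, collagen, matricellular and receptor lists, 3 for epithelial markers and 6 for neighbours. Follistatin-domain relatives had 0 calls with the mean of probe sets and with cyclic loess. Both dim filters also gave 0 there, but they removed CRIM1 (mean level 5.74), the one gene called, so its call was not tested. The mean of probe sets gave 1 for the activin and BMP list and 0 for fibroblast and endothelial markers, which had 2 after cyclic loess. With genes above the median level (7.11), proteases had 1 call and mesenchymal genes 2. That filter removed TIMP1, MMP17, TWIST1 and FN1, whose means are below it, so their calls were not tested there. Leaving out each array gave 751 to 4241 genes, 0 to 1 follistatin-domain relatives, 0 to 7 activin and BMP genes, 1 to 6 collagen genes, 1 to 5 matricellular proteins, 2 to 4 proteases, 1 to 8 receptors, 0 to 2 fibroblast and endothelial markers, 0 to 4 mesenchymal genes, 3 to 7 epithelial markers and 7 to 21 neighbours.

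Whether the replicate numbers pair the arrays was not settled. Deviations of same-numbered arrays from their group means correlated at 0.49, 0.35 and -0.05, and those of differently numbered arrays at -0.60 to 0.49. SUM44 replicate 2 correlated best with LCCTam replicate 3 (0.49). With the replicate block 2152 genes were called, beside 1888 without it. The block gave 2 calls in the collagen list and 0 among follistatin-domain relatives. The dim signals of SPARCL1, SPOCK1, SPOCK3 and FSTL1, under the lower quartile of gene means in both groups, limit what 3 arrays per group can show of them.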

Other observations

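Several members that differed little lie beside genes with large differences, named here after their values were seen. SPOCK2 (0.05) lies 2 measured genes from DDIT4, which rose by 3.25 ± 0.18 (adjusted p = 8.22e-05 by limma) and is one of the 3 genes most like SPARC, and 4 from P4HA1, which fell by 1.91. CHST3 and ASCC1, the measured genes next to SPOCK2 on either side, differed by -0.09 and -0.21. FSTL1 (0.22) lies 4 measured genes from GTF2E1, a subunit of the general transcription factor TFIIE, which fell from 9.12 to 6.36 (-2.76 ± 0.24, adjusted p = 0.000504), with HGD higher by 0.75 and NDUFB4 lower (-0.68) between them. SPOCK3 (0.21) lies 3 from PALLD (palladin, an actin-associated protein), which fell by 1.46 (-0.53 and -1.24, both called, on its dimmer probe sets), and 4 from MSMO1, a sterol synthesis enzyme, which fell by 1.28. The calls of DDIT4, GTF2E1, HGD, NDUFB4, PALLD and MSMO1 were kept with any array left out. Around FSTL3 (0.13), BSG (basigin) rose by 0.93, POLRMT, the mitochondrial RNA polymerase, by 1.13 (0.58, not called, on its dimmer probe set) and PTBP1, a splicing factor, by 0.75. With SUM44 replicate 2 dropped these 3 calls ended (limma adjusted p = 0.0511, 0.0511 and 0.0575), as did those of BSG (0.0587) and PTBP1 (0.0688) with LCCTam replicate 2 dropped and that of POLRMT (0.0532) with SUM44 replicate 1 dropped.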
